A study of Mus musculus with 12 samples.

Results

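The comparison described here is the genotype by DNFB interaction in mouse ear skin: for each gene, the DNFB response of ears without cannabinoid receptors minus the DNFB response of wild-type ears, on the log2 scale. It is a difference of differences, (KO DNFB minus KO control) minus (WT DNFB minus WT control), and it draws on 12 of the 12 arrays of the study, 3 in each of 4 groups. Probe sets were taken in where the deposited intensity was at least 16 on at least 3 of the 12 arrays, which kept 29460 of the 45101 probe sets (64 of them array controls) and gave a value to 13383 of the 18193 genes on the array. KO stands for global double knockout mice, Cnr1-/-/Cnr2-/-, which lack both cannabinoid receptors in every tissue, and WT for C57BL/6J mice. The groups were KO DNFB (right ears of KO mice painted with DNFB), KO control (untreated left ears of the same KO mice), WT DNFB (painted right ears of WT mice) and WT control (their untreated left ears). All 6 mice were females of 8 to 10 weeks, 3 per genotype. All had been sensitised on the shaved abdomen with 50 µl of 0.2% DNFB before 10 µl of 0.3% DNFB was painted on the right ear on day 5, so the untreated ears also came from sensitised animals. Whole ears were taken 48 h after what the labels call the second DNFB challenge. A positive interaction means a higher, and a negative one a lower, DNFB response in KO ears, and a value of 1 on the log2 scale is a 2-fold difference between the responses.

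DNFB (1-fluoro-2,4-dinitrobenzene) is a hapten: it binds skin proteins, and in a sensitised animal a second contact calls in hapten-specific T cells and then neutrophils and monocytes, the reaction known as contact hypersensitivity. In the epidermis the keratinocytes answer with chemokines, proliferation and a switch from the programme of normal cornification to one of stress keratins and small proline-rich proteins. CB1 (Cnr1) and CB2 (Cnr2) are the G protein-coupled receptors for the endocannabinoids anandamide and 2-arachidonoylglycerol. In skin CB1 is known from nerve fibres, keratinocytes and hair follicles, and CB2 mainly from leukocytes.

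The deposited values are linear intensities from GCRMA, and on each array 57.7% to 61.5% of the probe sets reached 16. The tissue label held: Krt10, the keratin of the suprabasal epidermis, read from 7705 to 10493 over the 12 arrays, and markers of ear muscle and cartilage were present as well. The knocked-out genes gave no check of the genotype labels. Cnr1 read 19.8, 4.88 and 5.74 in KO DNFB ears and 13.7, 11.2 and 8.54 in KO control ears, against 16.3, 10.9 and 8.75 in WT DNFB ears and 9.29, 17.01 and 6.04 in WT control ears. Cnr2 read 30.1, 39.4 and 28.6 in KO DNFB ears and 21.3, 9.85 and 10.2 in KO control ears, against 28.1, 15.9 and 27.9 in WT DNFB ears and 12.3, 18.1 and 7.84 in WT control ears. Neither was lower in KO ears: Cnr1 overlapped between the genotypes in both ears, and Cnr2 overlapped in control ears and was higher in KO than in WT DNFB ears. Where the probe sets sit relative to the deleted parts of the genes is not given in the sources used here. The interactions were -0.65 ± 0.75 for Cnr1 and 0.38 ± 0.53 for Cnr2 (adjusted p = 0.936 and 0.954). The hybridisation times in the array records fall into 3 groups of 4 arrays, called runs here: 1 run held the 3 WT control arrays with WT DNFB 1, another held WT DNFB 2 and 3 with KO control 1 and 2, and the last held KO control 3 with the 3 KO DNFB arrays. No run held all 4 groups, so the interaction cannot be formed within a run, and a fit with the run as a fixed block rests on the single arrays WT DNFB 1 and KO control 3. RNA integrity was read from Actb, as its 3' over its 5' probe sets on the log2 scale, and averaged 0.42 in KO DNFB, 0.48 in KO control, 0.52 in WT DNFB and 0.66 in WT control ears. The same difference of differences taken on that ratio was 0.07.

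The DNFB responses of the 2 genotypes were alike in direction and, for most genes, close in size. In limma, 2837 genes (21.2%) rose and 3286 (24.6%) fell with DNFB in KO ears, and 2545 (19%) rose and 3216 (24%) fell in WT ears. Of the 4720 genes that passed in both genotypes, 4719 moved the same way. The 1 exception was Slc26a6, an anion exchanger, with a response of 0.43 in KO ears and -0.53 in WT ears. Against this, 1 of the 13383 genes passed the test of the interaction itself at an adjusted p below 0.05 (0.00747% of genes), and likewise 1 of the 29460 probe sets (0.00339%). The gene was Slco1a5, with a lower response in KO ears, and 0% of probe sets passed in limma with a higher response in KO ears. The next smallest adjusted p was 0.105 among probe sets and 0.175 among genes.

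An interaction that misses the threshold is not shown to be absent, so the intervals are given as well. The median standard error of an interaction was 0.21 (log2), with quartiles of 0.16 and 0.31. For 10034 genes (75%) the 95% interval lay within -1 to 1, which is to say that a 2-fold difference between the responses lay outside it. Among the 10995 genes that reached 16 on all 12 arrays this was so for 88.6%, and among the other genes for 12.3%. Of the 1490 genes that passed and moved at least 2-fold in both genotypes, 888 had such an interval. A total of 448 genes had an estimated interaction of 1 or more in size, and 38 of these reached 16 on all 12 arrays. Without adjustment, 388 genes (2.9%) had p below 0.05 with a higher and 454 (3.39%) with a lower response in KO ears, together 842 (6.29%). After centring each array on its median, this unadjusted split over genes was 238 higher against 578 lower, and with the run as a fixed block it was 387 higher against 268 lower. Among probe sets 987 (3.35%) were on the higher and 846 (2.87%) on the lower side, together 1833 (6.22%). The genotypes themselves, set against each other within 1 kind of ear, differed past the adjusted threshold for 9 genes in DNFB ears (0.0672%) and for 20 in control ears (0.149%). The responses of the 3 KO mice, each taken as right ear minus left ear, all lay above those of the 3 WT mice for 922 genes (6.89%) and all below for 873 genes (6.52%).

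**Figure D1:**
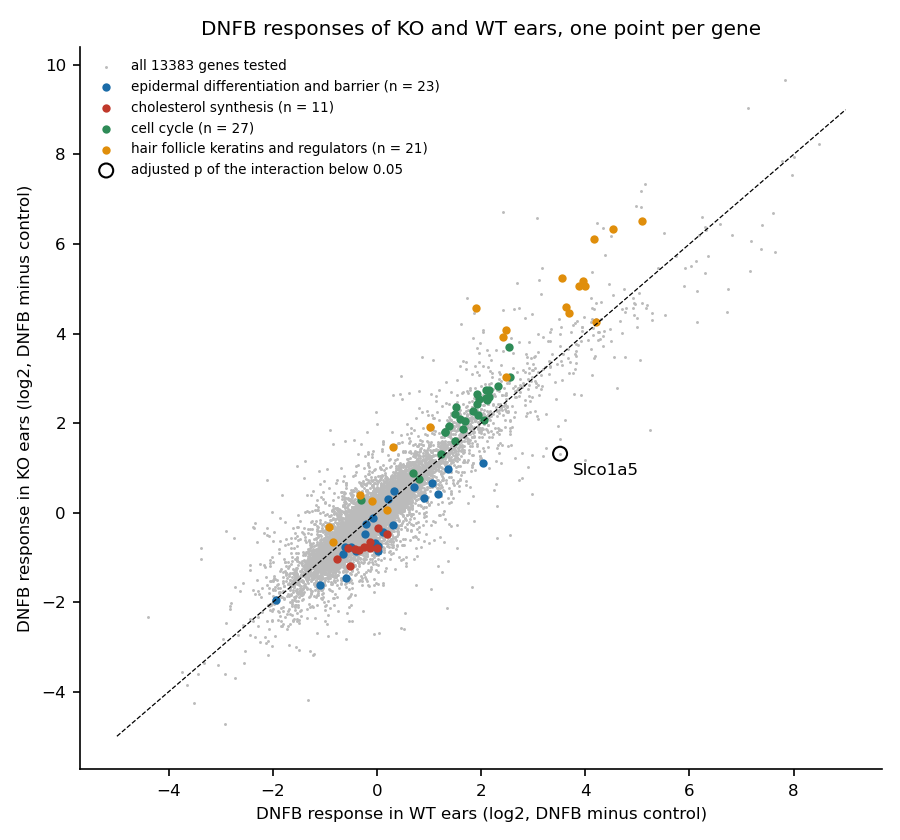
Each grey point is 1 of the 13383 genes tested; the x axis is its DNFB response in WT ears and the y axis its response in KO ears (log2, DNFB minus control, 3 arrays per group), and the dashed line marks equal responses. Coloured points are members of 4 gene lists, and the circled gene, Slco1a5, is the 1 gene with an adjusted p of the interaction below 0.05.

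Slco1a5 encodes an organic anion transporting polypeptide, a membrane carrier of bile acids, steroid conjugates and thyroid hormones, and lies on chromosome 6. It read 18.6, 18.5 and 17.5 in KO DNFB ears and 7.05, 8.47 and 6.54 in KO control ears, against 22.9, 20.6 and 28.5 in WT DNFB ears and 2.12, 2.25 and 1.88 in WT control ears. The groups did not overlap in either comparison of ears: KO DNFB ears were below WT DNFB ears, and KO control ears were above WT control ears. By mouse, the response was 1.40, 1.13 and 1.42 in KO mice and 3.43, 3.19 and 3.92 in WT mice. The interaction was -2.20 ± 0.20 (SE; log2; adjusted p = 0.0164 in limma), made up of a KO minus WT difference of -0.39 in DNFB ears and of 1.81 in control ears. Most of the interaction therefore came from the control ears, where both groups lay below 16. With every value below 16 set to 16, the interaction shrank to -0.39 and its adjusted p was 0.684. With the mouse as a block, which is the fit in which the 2 ears of an animal are paired, the estimate stayed at -2.20 and the adjusted p was 0.568. The call was also lost with no filter on low intensities (adjusted p = 0.0906), with a trended and robust variance (0.567), with the run as a fixed block (0.118) and without any of 6 single arrays, namely KO DNFB 1 or 3, KO control 1 or 2 and WT control 1 or 3 (0.0509 to 0.0928). A second probe set of the gene stayed below 16 on all 12 arrays and was not tested.

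The 24 genes of the next paragraphs, 12 in each direction and Slco1a5 among them, are those with the smallest p of the interaction. They were chosen for that value, so their estimates and the separation of their mice are descriptions. The interaction is the KO minus WT difference in DNFB ears minus that in control ears. The choice itself therefore favours the signs counted next, and those counts are descriptions as well. All 12 genes on the lower side had higher values in KO control than in WT control ears, and 10 of the 12 had lower values in KO DNFB than in WT DNFB ears. In 8 of the 12 the control ears held the larger of the 2 differences, against 50% of all genes. On the higher side, 11 of 12 were lower in KO control than in WT control ears, 10 of 12 were higher in KO DNFB than in WT DNFB ears, and 7 had the larger difference in the control ears.

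On the lower side, Klk6, a kallikrein serine protease of keratinocytes, read 2419, 2949 and 2672 in KO DNFB ears and 341, 436 and 393 in KO control ears, against 2777, 3789 and 3446 in WT DNFB ears and 137, 171 and 105 in WT control ears. The control ears did not overlap between genotypes, and the DNFB ears did. Its response was 2.78 in KO ears and 4.62 in WT ears, and its interaction was -1.83 ± 0.26 (adjusted p = 0.21). Degs2 makes the phytoceramides of the skin barrier. Its intensities were 267, 252 and 240 in KO DNFB ears and 135, 193 and 221 in KO control ears, against 190, 321 and 258 in WT DNFB ears and 51.3, 58.4 and 49.5 in WT control ears. The DNFB ears overlapped, and every KO control ear lay above every WT control ear (interaction -1.75 ± 0.30, adjusted p = 0.311). Atp12a, the non-gastric proton and potassium pump, had a response of 0.24 in KO ears and 1.25 in WT ears (interaction -1.003 ± 0.152, adjusted p = 0.21). With a trended and robust variance Klk6, Degs2 and Atp12a each passed, at adjusted p of 0.0128, 0.0347 and 0.0198. That was the only 1 of 22 alternatives in which they passed. In the rest their adjusted p in limma reached 0.568, 0.654 and 0.772.

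Of the others on that side, 3 carry small molecules across membranes and a pair belongs to 1 surface protein family. Slc5a8, a sodium-coupled carrier of lactate and short-chain fatty acids, read 59.1, 49.9 and 58.1 in KO DNFB ears and 41.9, 41.9 and 49.0 in KO control ears, against 85.4, 96.6 and 84.4 in WT DNFB ears and 32.8, 33.7 and 30.4 in WT control ears. The genotypes were separated in both ears and in opposite directions (interaction -1.13 ± 0.15, adjusted p = 0.175). Slc16a11, a member of the monocarboxylate transporter family, had an interaction of -1.22, and Slc19a2, a thiamine transporter, one of -0.57. Ly6i and Ly6m are members of the Ly6 family of GPI-anchored surface proteins. Ly6i had an interaction of -2.83, but its WT control ears read 5.57, 3.10 and 2.07, and with values below 16 set to 16 the estimate was -0.54. Ly6m read 28.03, 37.2 and 32.6 in KO DNFB ears and 80.0, 111 and 99.8 in KO control ears, against 52.3, 55.5 and 50.9 in WT DNFB ears and 72.6, 67.0 and 83.6 in WT control ears. Every KO DNFB ear was below every WT DNFB ear, while the control ears overlapped (interaction -1.08 ± 0.21, adjusted p = 0.403).

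Hacl1, an enzyme of the peroxisomal alpha-oxidation of fatty acids, differed mainly in the untreated ear. It read 205, 164 and 104 in KO DNFB ears and 759, 908 and 919 in KO control ears, against 117, 125 and 142 in WT DNFB ears and 209, 275 and 269 in WT control ears. Its response was -2.50 in KO ears and -0.96 in WT ears, an interaction of -1.54 ± 0.32 (adjusted p = 0.5). Pde1b, a calcium- and calmodulin-dependent phosphodiesterase, had a response of -0.77 in KO ears and 0.30 in WT ears (interaction -1.07 ± 0.16, adjusted p = 0.21). The KO control ears, at 134, 146 and 144, were above WT control ears, at 63.3, 65.3 and 76.5, and the DNFB ears of the genotypes overlapped. The remaining gene was Lrrc28, at -0.78. Other probe sets of Lrrc28 and Slc19a2 gave smaller estimates of the same sign.

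On the higher side, Alg6, a glucosyltransferase of N-glycan assembly, read 33.1, 32.3 and 29.5 in KO DNFB ears and 14.8, 15.8 and 17.3 in KO control ears, against 32.8, 34.9 and 27.9 in WT DNFB ears and 33.9, 34.7 and 45.8 in WT control ears. The KO control ears stood below every ear of the other 3 groups, whose DNFB ears overlapped (interaction 1.24 ± 0.19, adjusted p = 0.224). Trp73, a transcription factor of the p53 family, had 42.6, 45.4 and 37.4 in KO DNFB ears and 38.6, 39.1 and 35.3 in KO control ears, against 33.0, 34.4 and 35.1 in WT DNFB ears and 52.1, 55.3 and 54.9 in WT control ears. Its genotypes were separated in both ears, in opposite directions (interaction 0.81 ± 0.13, adjusted p = 0.283). Alg6 and Trp73 lie on chromosome 4, the chromosome of Cnr1 and Cnr2.

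Cd209e, a C-type lectin of the DC-SIGN family, read 70.9, 62.3 and 71.7 in KO DNFB ears and 59.2, 79.9 and 48.1 in KO control ears, against 26.1, 24.0 and 24.4 in WT DNFB ears and 68.5, 42.6 and 59.4 in WT control ears. The WT DNFB ears were the low group, and the other 3 overlapped (interaction 1.33 ± 0.29, adjusted p = 0.534). Akr1c18, an aldo-keto reductase that inactivates progesterone, read 348, 299.99 and 311 in KO DNFB ears and 349, 298 and 297 in KO control ears, against 462, 477 and 484 in WT DNFB ears and 679, 754 and 751 in WT control ears. It was lower in KO than in WT ears on either side, and its response was 0.02 in KO ears and -0.62 in WT ears (interaction 0.64 ± 0.14, adjusted p = 0.534). A pair of mitotic genes was also among the 12: Cenph, a kinetochore protein, had an interaction of 1.05 ± 0.22, and Ckap2l, a spindle protein, one of 0.74 ± 0.16 (adjusted p = 0.534 for each). For Ckap2l another probe set gave a smaller estimate. The remaining estimates were 0.96 for Slc26a6, 0.89 for Sdccag8, a centrosomal protein, and 0.62 for Rac3, a small GTPase. Other probe sets of Sdccag8 gave 0.33 ± 0.62 and -0.11 ± 0.34. Ppp1r27, Gpr135 and Efnb3 had estimates of 2.59, 1.74 and 1.78, which became 0.56, 0.77 and 0.43 with values below 16 set to 16.

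**Figure D2:**
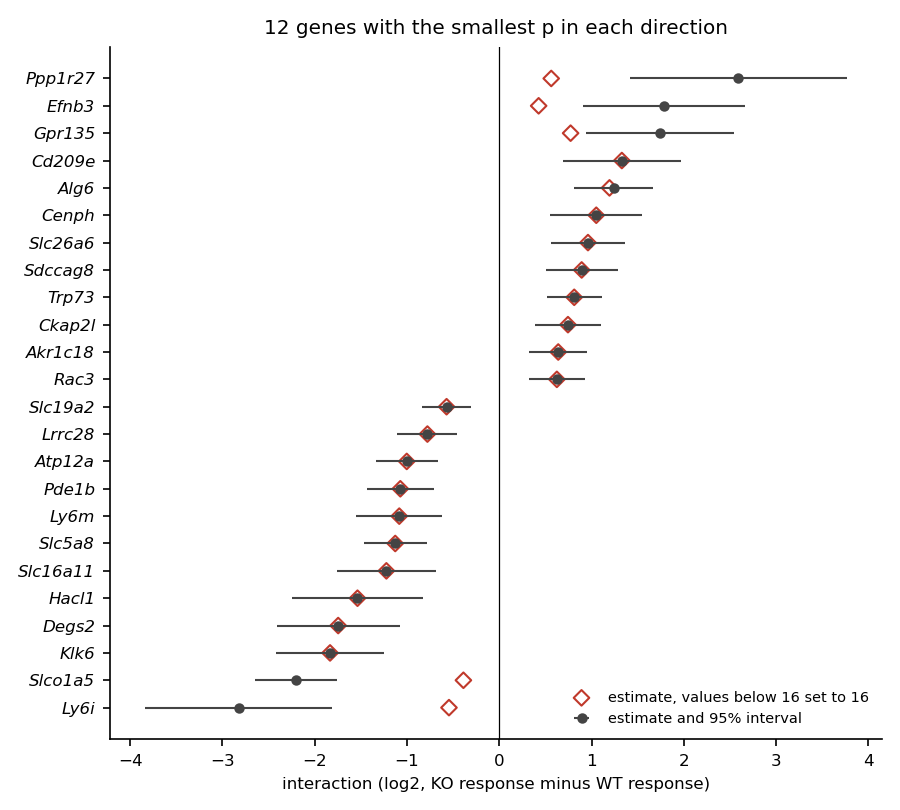
Interaction (log2, KO response minus WT response) of the 12 genes with the smallest p in each direction: black points with bars give the estimate and its 95% interval from 3 arrays per group, and open diamonds the estimate after values below 16 were set to 16. The 2 coincide for most genes, and part for Slco1a5, Ly6i, Ppp1r27, Gpr135 and Efnb3.

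**Figure D3:**
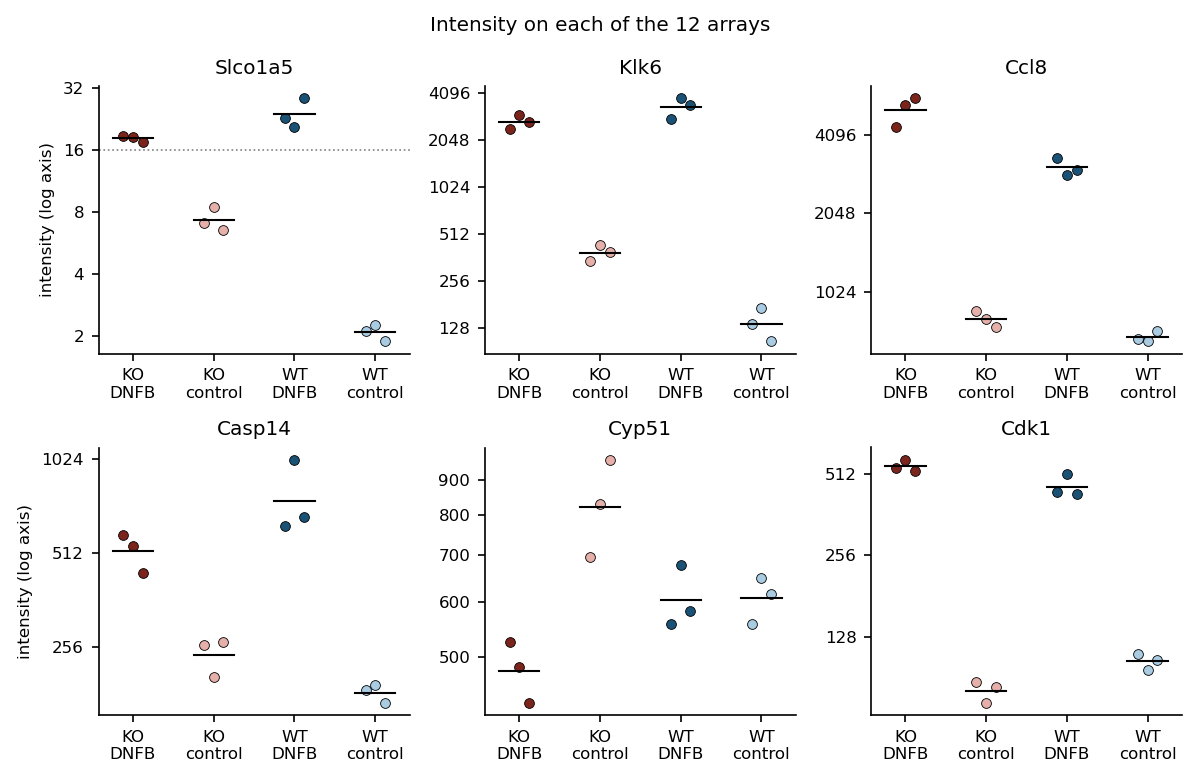
Intensity of 6 genes on each of the 12 arrays (log axis), with KO DNFB, KO control, WT DNFB and WT control ears from left to right; points are arrays, bars are geometric means over 3 arrays, and the dotted line in the Slco1a5 panel marks an intensity of 16. The estimated response is smaller in KO than in WT ears for Klk6 and Casp14 and larger for Ccl8 and Cdk1, and Cyp51 separates the KO ears and not the WT ears; the adjusted p of the interaction runs from 0.21 to 0.681 in these 5 genes.

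The gene groups of the skin reaction were followed through 35 lists with 477 tested genes of 536 listed. Members and lists were chosen with earlier results of these data known. List counts and mouse separations set against all genes are therefore descriptions and no test. Counts that passed in each genotype do not test the difference between the genotypes either. None of the 477 passed the adjusted test in limma; 56 had an unadjusted p below 0.05 (6.29% of all genes), 23 with a higher (2.9% of all genes) and 33 with a lower response in KO ears (3.39% of all genes). The 95% interval lay within -1 to 1 for 269 of them (56.4%, against 75% of all genes tested). Over all genes tested the median interaction was 0.02 and 53.2% of the estimates were above 0. List medians ran from -0.52 for cholesterol synthesis to 1.08 for hair follicle genes. In bulk tissue, fewer cells of a type and less RNA per cell cannot be told apart.

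**Figure D4:**
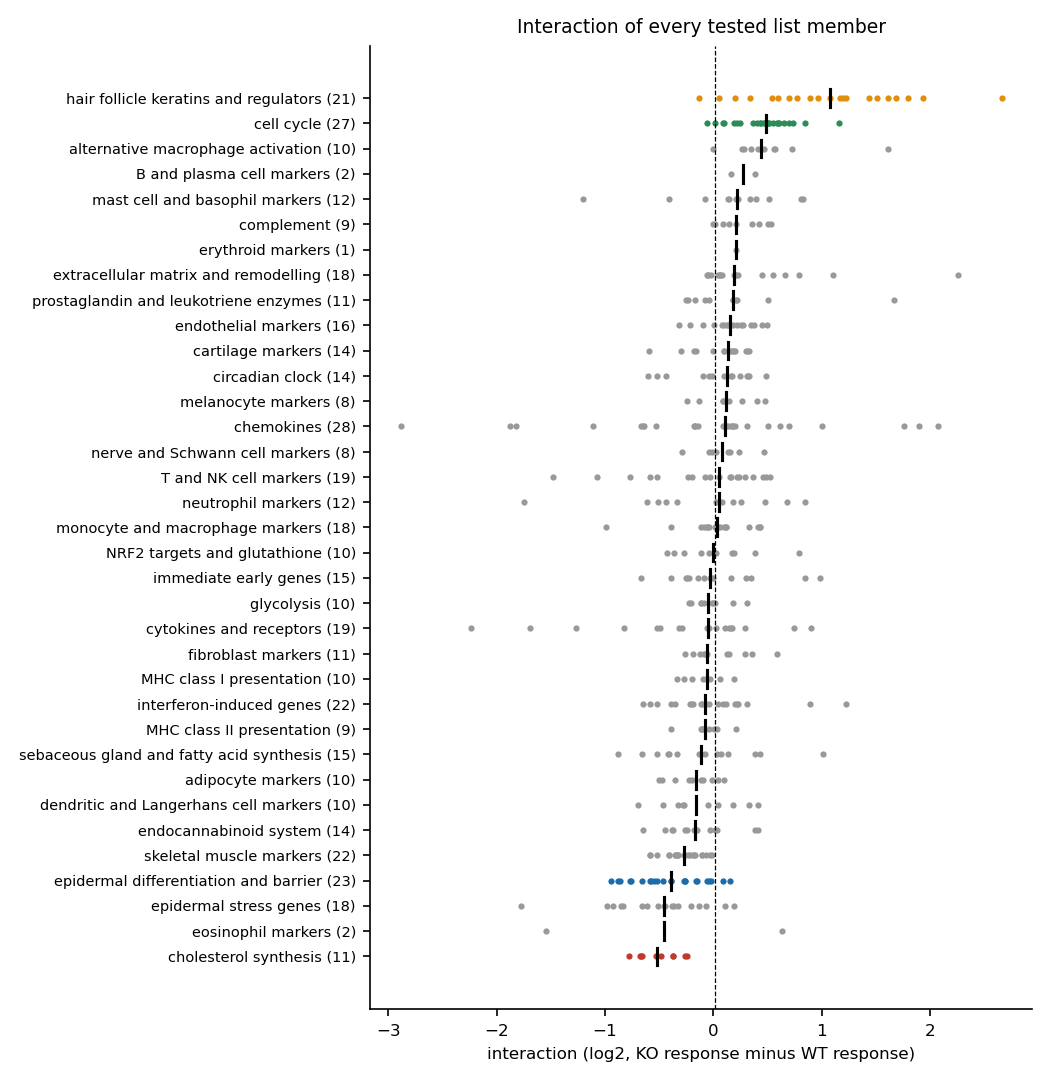
Interaction (log2, KO response minus WT response) of every tested member of the 35 gene lists, 1 point per gene, with the list median as a black bar and the number of tested members in parentheses; the dashed line is the median of all 13383 genes, 0.02. Cell cycle and hair follicle genes lie mostly to the right of the line, and cholesterol synthesis and epidermal differentiation genes mostly to the left.

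Of 22 tested interferon-induced genes, all 22 rose with DNFB in KO ears and all 22 in WT ears, against 21.2% and 19% of all genes. Their median response was 3.12 in KO ears and 3.01 in WT ears, and their median interaction was -0.07. The 95% interval lay within -1 to 1 for 11 of the 22, against 75% of all genes, so for the other 11 a 2-fold difference lay within it. Gbp2, an interferon-induced guanylate-binding GTPase, read 2008, 2384 and 1832 in KO DNFB ears and 131, 82.1 and 84.6 in KO control ears, against 2565, 1820 and 2386 in WT DNFB ears and 68.8, 70.4 and 80.8 in WT control ears. Its DNFB ears overlapped between the genotypes (interaction -0.52 ± 0.28, adjusted p = 0.831). The antiviral genes Ifit1 and Ifit2 had interactions of 0.12 and 0.09. The 10 tested genes of MHC class I presentation, among them the peptide transporter Tap1 (0.19), the immunoproteasome subunit Psmb8 (-0.20) and the light chain B2m (-0.06), all had 95% intervals within -1 to 1. For MHC class II, 8 of 9 had such an interval, with -0.11 for the invariant chain Cd74 and -0.04 for H2-Aa.

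Among chemokines, 20 of 28 rose with DNFB in KO ears and 19 of 28 in WT ears, against 21.2% and 19% of all genes. The median interaction was 0.11, and the 95% interval lay within -1 to 1 for 7 of the 28. Estimates ran from -2.89 to 2.07, with 16 above and 12 below 0. On the higher side 5 members had an unadjusted p below 0.05 in limma (2.9% of all genes), and on the lower side 0 (3.39% of all genes). Ccl8, which attracts monocytes and T cells, read 4404, 5352 and 5683 in KO DNFB ears and 864, 805 and 746 in KO control ears, against 3347, 2887 and 3020 in WT DNFB ears and 674, 659 and 724 in WT control ears. Both ears of KO mice lay above those of WT mice, and its response was 2.67 in KO ears and 2.17 in WT ears (interaction 0.50 ± 0.16, unadjusted p = 0.0118, adjusted p = 0.681). The other chemokines of that count were Ccl4, Ccl24, Ccl27a and Cxcl14. Ccl24, an eotaxin that acts on eosinophils, read 105, 90.9 and 107 in KO DNFB ears and 27.03, 41.0 and 31.2 in KO control ears, against 38.7, 41.1 and 13.8 in WT DNFB ears and 35.8, 35.7 and 42.7 in WT control ears. The KO DNFB ears were the high group (interaction 2.07 ± 0.50, adjusted p = 0.601). Ccl4, a chemokine of activated macrophages, had an interaction of 1.76 ± 0.55 (adjusted p = 0.672), and Cxcl14, a chemokine of resting skin, one of 1.00 ± 0.32 (adjusted p = 0.681). Ccl2, the main monocyte chemoattractant, had an interaction of 0.31 ± 0.40. Cxcl9, the interferon-gamma-induced ligand of CXCR3, had one of -1.82 ± 0.95, and -0.95 with values below 16 set to 16.

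Of 19 cytokines and receptors, 2 had an unadjusted p below 0.05, both on the lower side, where the share over all genes was 3.39%. They were Il36a and Il36g, cytokines of the interleukin 1 family. The annotation of the array lists the interleukin 36 genes under their older Il1f names. Il36a read 293, 273 and 232 in KO DNFB ears and 93.0, 110 and 181 in KO control ears, against 347, 467 and 315 in WT DNFB ears and 82.7, 80.0 and 55.5 in WT control ears. The genotypes did not overlap in either ear (interaction -1.26 ± 0.37, adjusted p = 0.649). Il36g had an interaction of -0.82 ± 0.23 (adjusted p = 0.649), and Il36b, kept in the list of epidermal stress genes, one of -0.66 ± 0.31 (adjusted p = 0.81). Il1b, Ifng and Il6 had interactions of 0.75 ± 0.44, -0.29 ± 0.79 and -2.24 ± 1.42, and the last became -0.08 with values below 16 set to 16.

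Markers of neutrophils, of monocytes and macrophages, and of T and NK cells had medians close to that of all genes. The median interaction was 0.05 for 12 neutrophil markers, 0.03 for 18 monocyte and macrophage markers and 0.05 for 19 T and NK cell markers. The neutrophil markers were imprecise, with a median standard error of 0.82, and their mean intensity was 70.7 in KO control 3 against 14.98 and 22.2 in the other 2 KO control ears. Csf1r, the receptor for macrophage colony stimulating factor, had an interaction of 0.02 ± 0.15. Gzmb, the granzyme of cytotoxic cells, read 346, 390 and 431 in KO DNFB ears and 442, 350 and 334 in WT DNFB ears, and its interaction of -1.48 came from control ears below 10, becoming 0.06 with values below 16 set to 16. In the list of alternative macrophage activation, 9 of 10 estimates were above 0, the median was 0.44, and 3 (Arg1, Mrc1 and Cd163) had an unadjusted p below 0.05 on the higher side, against 2.9% of all genes. Arg1, the arginase of alternatively activated macrophages, read 419, 576 and 899 in KO DNFB ears and 51.2, 51.0 and 50.8 in KO control ears, against 123, 407 and 279 in WT DNFB ears and 59.96, 56.8 and 71.1 in WT control ears. Every KO DNFB ear was above every WT DNFB ear and every KO control ear below every WT control ear (interaction 1.61 ± 0.55, adjusted p = 0.711). Mrc1, the mannose receptor, and Cd163, the haemoglobin scavenger receptor, had interactions of 0.47 ± 0.21 and 0.57 ± 0.23.

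The genes of epidermal differentiation and barrier leaned towards a lower response in KO ears. Of the 23 tested (Flg2 was not), 21 had an estimate below 0 and 13 had an unadjusted p below 0.05 on the lower side, where the share over all genes was 3.39%. For 13 of the 23 tested members the responses of the 3 KO mice all lay below those of the 3 WT mice, against 6.52% of all genes. With DNFB, 5 members rose and 12 fell in KO ears, and 5 rose and 6 fell in WT ears. Over all genes 21.2% rose and 24.6% fell in KO ears, and 19% rose and 24% fell in WT ears. The median interaction was -0.39, from a median response of -0.43 in KO ears and 0.01 in WT ears. The KO minus WT difference had a median of -0.35 in DNFB ears and of 0.06 in control ears. By mouse, the median response of the list was -0.39, -0.38 and -0.33 in KO mice and 0.09, 0.05 and -0.12 in WT mice. No member passed the adjusted test, the smallest adjusted p being 0.534.

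Within that list the 13 genes were of several kinds. Casp14, the caspase that processes filaggrin in the granular layer, read 585, 539 and 442 in KO DNFB ears and 260, 205 and 265 in KO control ears, against 625, 1020 and 668 in WT DNFB ears and 186, 194 and 170 in WT control ears. The genotypes were separated in both ears (interaction -0.94 ± 0.27, adjusted p = 0.649). Flg, filaggrin itself, had an interaction of -0.77 ± 0.31, Hrnr, hornerin, of -0.66 ± 0.22, and Krt1, the partner of Krt10, of -0.39 ± 0.16. The desquamation protease Klk5 read 607, 569 and 545 in KO DNFB ears and 940, 918 and 1028 in KO control ears, against 763, 909 and 726 in WT DNFB ears and 703, 878 and 792 in WT control ears. Here too the ears separated, KO DNFB being the low group and KO control the high one (interaction -0.76 ± 0.17, adjusted p = 0.534). Klk7, another protease of desquamation, had -0.39 ± 0.16, Spink5, the inhibitor of these proteases, -0.55 ± 0.16, and Cdsn, the corneodesmosin they cut, -0.87 ± 0.20. Among lipid enzymes, the lipoxygenases Alox12b and Aloxe3 had -0.88 ± 0.26 and -0.52 ± 0.16, the ceramide synthase Cers3 -0.58 ± 0.19 and the fatty acid elongase Elovl4 -0.46 ± 0.15. Tgm1, the transglutaminase that cross-links the cornified envelope, had -0.57 ± 0.20. The other 10 members had an unadjusted p of 0.05 or more: Krt10 was at -0.06 ± 0.14, and the basal keratins Krt5 and Krt14 were at 0.09 ± 0.14 and 0.16 ± 0.16. Krt10 read near the top of the scale, where the highest intensity per array ran from 8039 to 10532. Whether differences are compressed at such intensities was not tested.

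The stress programme of the epidermis was imprecisely measured. Of its 18 tested genes, 17 rose with DNFB in KO ears and 18 in WT ears, against 21.2% and 19% of all genes. The median responses were 4.69 in KO ears and 5.44 in WT ears. The median interaction was -0.45 with a median standard error of 0.60, and 0 of the 18 had an unadjusted p below 0.05 in either direction. The estimate was below 0 for 16 of the 18 and above 0 for 2. Krt6a, a keratin of activated keratinocytes, read 5388, 6685 and 6190 in KO DNFB ears and 301, 303 and 306 in KO control ears, against 6228, 6553 and 6123 in WT DNFB ears and 412, 347 and 327 in WT control ears. The DNFB ears overlapped (interaction 0.19 ± 0.16). For Krt16 and Sprr1b the interactions were -0.13 ± 0.68 and -0.83 ± 0.80. KO control 3 had the highest mean intensity of the list among untreated ears, at 175 against 105 in each of the other KO control ears, and without that array the median interaction was -0.10.

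The enzymes of cholesterol synthesis also leaned to a lower response in KO ears. All 11 tested genes had an estimate below 0, and 7 had an unadjusted p below 0.05, against 3.39% of all genes on that side. The median interaction was -0.52, from median responses of -0.79 in KO ears and -0.26 in WT ears, and the KO minus WT difference had a median of -0.17 in DNFB ears and 0.34 in control ears. In KO ears 10 of the 11 fell with DNFB and in WT ears 4 of 11, against 24.6% and 24% of all genes. By mouse, the median response of the list was -0.43, -0.78 and -1.07 in KO mice and -0.22, -0.28 and -0.27 in WT mice. Cyp51, the lanosterol demethylase, read 525, 483 and 429 in KO DNFB ears and 696, 829 and 962 in KO control ears, against 558, 678 and 581 in WT DNFB ears and 558, 649.9 and 616 in WT control ears. The WT ears overlapped and the KO ears did not (interaction -0.78 ± 0.20, adjusted p = 0.617). Sqle, the squalene epoxidase, had -0.67 ± 0.17, and Msmo1, a sterol methyl oxidase, -0.68 ± 0.22. Lss, lanosterol synthase, read 258, 225 and 201 in KO DNFB ears and 348, 408 and 423 in KO control ears, against 206, 209 and 212 in WT DNFB ears and 200.1, 242 and 247 in WT control ears. Its KO control ears were the high group (interaction -0.66 ± 0.18, adjusted p = 0.627). Fdps and Fdft1, the synthases of farnesyl diphosphate and of squalene, had -0.53 ± 0.17 and -0.48 ± 0.16, and Nsdhl, a sterol dehydrogenase, -0.52 ± 0.16. Hmgcs1, at the head of the pathway, and the cholesterol-making reductase Dhcr7 had smaller estimates of -0.24 ± 0.15 and -0.27 ± 0.19. The 15 tested genes of the sebaceous gland and fatty acid synthesis had a median of -0.11 and a range of -0.88 to 1.01. Of these, 3 had an unadjusted p below 0.05 on the lower side (3.39% of all genes) and 1 on the higher side (2.9% of all genes), and for 4 the KO mice all lay below the WT mice (6.52% of all genes). The first members of that list were Scd1 at 0.07 ± 0.17, Fasn at -0.08 ± 0.16 and Srebf1 at 0.03 ± 0.13.

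The promoters of these enzymes were read from RefSeq (GRCm38.p6) for the 250 bases before the annotated start, and 8 of the 11 tested genes had an entry. Sterol genes are known to be driven by SREBP2 with NF-Y, which binds CCAAT boxes. The letters CCAAT, searched on both strands (ATTGG on the other strand), occurred in all 8, against 33.8% of 32851 promoters of the same length. A list gene counted where any of its promoters held the letters. The share over all promoters counts each promoter singly, from 27025 genes, so the 2 measures differ. The letters TCACCCCAC, one form of the sterol element, were searched on both strands too and occurred in 1 of the 8, Hmgcs1, against 0.496% of all promoters. A match describes the letters and is no measured binding, and a link between the letters and the interaction was not tested. The promoters of Cyp51 (chr5:4104698-4104947, minus strand), Lss (chr10:76531355-76531604, plus strand) and Hmgcs1 (chr13:119690101-119690350, plus strand) are shown 5′ to 3′ along the gene, with these motifs in capitals, as the 2 genes with the values above and the 1 gene with the sterol letters.
Cyp51: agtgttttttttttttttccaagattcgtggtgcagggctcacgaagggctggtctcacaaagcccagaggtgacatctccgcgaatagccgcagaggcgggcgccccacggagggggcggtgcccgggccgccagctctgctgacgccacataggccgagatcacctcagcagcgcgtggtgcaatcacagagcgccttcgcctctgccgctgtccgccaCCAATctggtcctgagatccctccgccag
Lss: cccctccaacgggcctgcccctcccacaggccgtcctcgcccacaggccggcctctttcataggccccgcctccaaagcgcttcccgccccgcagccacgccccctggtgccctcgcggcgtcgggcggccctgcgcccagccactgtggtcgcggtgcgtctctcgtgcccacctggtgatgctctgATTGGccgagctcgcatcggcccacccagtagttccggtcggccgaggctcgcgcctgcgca
Hmgcs1: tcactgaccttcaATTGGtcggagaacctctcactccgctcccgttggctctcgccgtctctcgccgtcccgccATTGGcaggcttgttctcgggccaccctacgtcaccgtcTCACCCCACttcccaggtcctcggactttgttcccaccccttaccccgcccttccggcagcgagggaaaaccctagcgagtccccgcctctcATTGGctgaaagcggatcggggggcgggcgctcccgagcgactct

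Cell cycle genes leaned the other way. Of 27 tested, 26 rose with DNFB in KO ears and 26 in WT ears, against 21.2% and 19% of all genes, and 26 had an estimated interaction above 0. With 8 members at an unadjusted p below 0.05 on the higher side, the share was above the 2.9% of all genes, and none lay on the lower side. For 12 of the 27 the 3 KO mice all lay above the 3 WT mice, against 6.89% of all genes. The median interaction was 0.49, from median responses of 2.19 in KO ears and 1.85 in WT ears, with a KO minus WT difference of 0.20 in DNFB ears and of -0.25 in control ears. By mouse, the median response was 2.07, 2.44 and 2.14 in KO mice and 1.71, 1.91 and 1.601 in WT mice. Cdk1, the kinase that drives entry into mitosis, read 536, 577 and 523 in KO DNFB ears and 87.4, 73.1 and 83.4 in KO control ears, against 438, 510 and 432 in WT DNFB ears and 111, 97.1 and 105 in WT control ears. KO ears were above WT ears after DNFB and below them when untreated (interaction 0.61 ± 0.15, adjusted p = 0.617). Top2a, the topoisomerase of dividing cells, read 783, 797 and 912 in KO DNFB ears and 165, 95.2 and 149 in KO control ears, against 760, 862 and 724 in WT DNFB ears and 189, 197 and 239 in WT control ears. Its DNFB ears overlapped, and its KO control ears were below the WT control ears (interaction 0.73 ± 0.27, adjusted p = 0.755). Mki67, the proliferation antigen, had an interaction of 0.85 ± 0.36, with KO control ears at 303, 130 and 209 and WT control ears at 295, 339 and 345. Aurkb, the kinase of the chromosomal passenger complex, and its partner Birc5 had 0.55 ± 0.17 and 0.51 ± 0.20, Ccna2, cyclin A2, had 0.43 ± 0.16, and Kif20a, a kinesin of cytokinesis, 0.58 ± 0.25. Tyms, thymidylate synthase, completed the 8 at 0.59 ± 0.27. Among the other 19 members, Mcm2, Mcm3, Mcm5 and Mcm6, subunits of the replicative helicase, had 0.22, 0.10, 0.25 and 0.09, and Rrm2, the ribonucleotide reductase subunit, 0.01 ± 0.14. The count of 8 was 2 with the run as a fixed block, 5 with the mouse as a block and 3 to 14 when single arrays were left out. It was 4 with median centring and 5 with quantile normalisation or with no filter. It was 9 with means over probe sets and 10 with a minimum of 64 or a floor of 16. With a trended and robust variance it was 12, and with the run as a random block 14.

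The cell cycle promoters were read in the same way. Mitotic genes are known for CCAAT boxes and for the CHR element, here searched as TTTGAA on both strands. Of the 27 genes 22 had an entry. CCAAT occurred in 18 of the 22 (81.8%, against 33.8% of all promoters) and TTTGAA in 7 (31.8%, against 16% of all promoters). The list shares again count genes with any matching promoter, and the shares of all promoters count each promoter singly. Cdk1 (chr10:69352913-69353162, minus strand) and Top2a (chr11:99024190-99024439, minus strand), whose values are given above, are printed with both motifs in capitals.
Cdk1: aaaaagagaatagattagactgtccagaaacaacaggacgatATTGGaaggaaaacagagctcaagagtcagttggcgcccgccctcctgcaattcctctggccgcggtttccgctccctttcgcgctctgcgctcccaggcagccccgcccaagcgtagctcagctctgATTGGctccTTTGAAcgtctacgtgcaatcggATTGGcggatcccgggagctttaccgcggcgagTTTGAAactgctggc
Top2a: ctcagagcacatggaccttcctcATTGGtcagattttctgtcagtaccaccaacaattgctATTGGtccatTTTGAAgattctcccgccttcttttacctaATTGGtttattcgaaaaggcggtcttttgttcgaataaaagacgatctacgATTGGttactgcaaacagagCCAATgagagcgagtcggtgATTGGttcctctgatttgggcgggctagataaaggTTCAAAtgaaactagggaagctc

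Hair follicle genes had the largest median interaction of the 35 lists, with wide errors. Of 21 tested, 16 rose with DNFB in KO ears and 10 in WT ears, against 21.2% and 19% of all genes. The estimated interaction was above 0 for 20, against 53.2% of all genes, with a median of 1.08 and a median standard error of 1.14. Only Shh, the hedgehog ligand of the growing follicle, had an unadjusted p below 0.05. It read 41.6, 55.3 and 23.4 in KO DNFB ears and 15.3, 11.1 and 14.9 in KO control ears, against 23.3, 24.2 and 15.2 in WT DNFB ears and 21.7, 15.5 and 13.7 in WT control ears. The KO DNFB ears overlapped with the WT DNFB ears (interaction 1.17 ± 0.45, adjusted p = 0.77). Krt25, a keratin of the inner root sheath, read 1715, 1542 and 379 in KO DNFB ears and 3.79, 13.7 and 37.5 in KO control ears, against 1266, 483 and 357 in WT DNFB ears and 11.2, 30.6 and 51.9 in WT control ears. The groups overlapped after DNFB, and the values differed several-fold between mice of 1 genotype (interaction 1.79 ± 1.30, adjusted p = 0.885). Krt71 and Krt34 gave 1.22 ± 1.14 and 1.43 ± 1.15. Over the list, the mean intensity in KO DNFB ears was 349, 349 and 67.8, and in WT DNFB ears 289, 95.6 and 65.7. The median response was 5.71, 4.94 and 1.94 in KO mice and 4.42, 2.51 and 1.20 in WT mice, so the spread between mice exceeded the difference between genotypes. The median became 0.75 with values below 16 set to 16, 1.75 without KO DNFB 3, and -0.44 with the run as a fixed block, where its direction turned. Without KO DNFB 3, 7 members had an unadjusted p below 0.05.

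**Figure D5:**
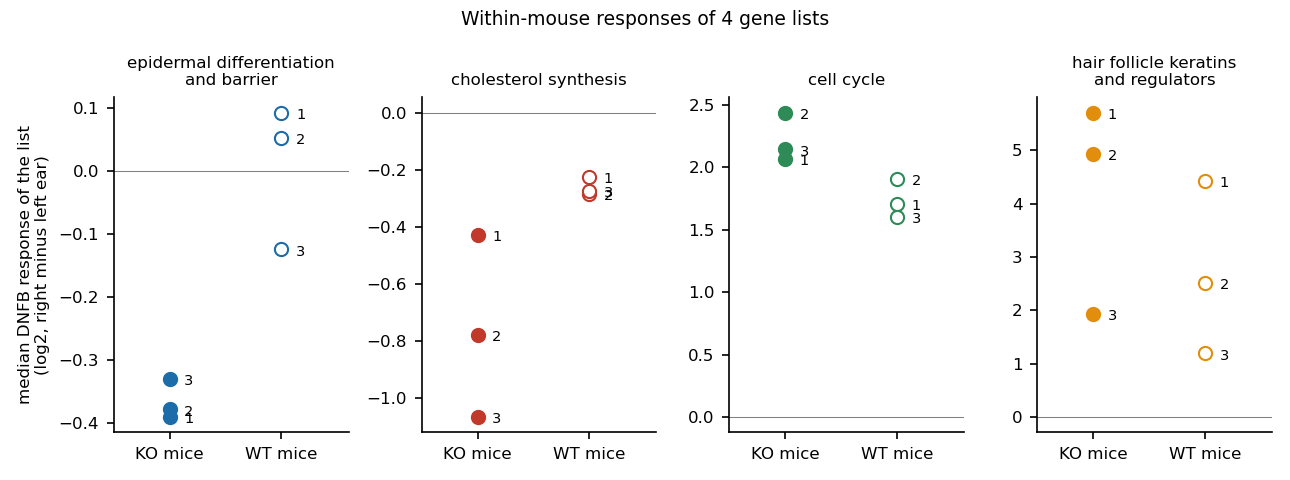
Median DNFB response of 4 gene lists in each mouse (log2, right ear minus left ear of the same animal), with KO mice as filled points and WT mice as open points, numbered by mouse. KO and WT mice do not overlap for epidermal differentiation, cholesterol synthesis or cell cycle genes, and overlap for hair follicle genes. The lists were chosen with earlier results of these data known, so the separation is a description. The y axes differ between panels.

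The remaining lists lay nearer the median of all genes or were too imprecise to place. The 22 skeletal muscle markers all had an estimate below 0, with a median of -0.27 and 0 at an unadjusted p below 0.05. Ckm, the muscle creatine kinase, read 715, 643 and 899 in KO DNFB ears and 1464, 2102 and 1577 in KO control ears, against 586, 867 and 1106 in WT DNFB ears and 1265, 1264 and 1745 in WT control ears. The genotypes overlapped in both ears (interaction -0.41 ± 0.35), and the list median was 0.30 once the run was a fixed block. Among the 14 tested genes of the endocannabinoid system none had an unadjusted p below 0.05, and the median was -0.17. Mgll and Faah, which break down 2-arachidonoylglycerol and anandamide, had interactions of -0.45 ± 0.27 and -0.38 ± 0.19. Medians were 0.19 for 18 genes of the extracellular matrix, 0.21 for 9 complement genes, 0.22 for 12 mast cell and basophil markers, 0.16 for 16 endothelial markers, 0.18 for 11 prostaglandin and leukotriene enzymes and 0.13 for 14 cartilage markers and 14 circadian clock genes each. They were -0.16 for 10 adipocyte markers and 10 dendritic and Langerhans cell markers each, -0.06 for 11 fibroblast markers, -0.05 for 10 glycolysis genes, -0.03 for 15 immediate early genes and -0.01 for 10 NRF2 targets. Smaller lists gave 0.12 for 8 melanocyte markers, 0.08 for 8 nerve and Schwann cell markers, 0.27 for 2 B cell and plasma cell markers, -0.46 for 2 eosinophil markers and 0.21 for the 1 erythroid marker. Members of these and the preceding lists with an unadjusted p below 0.05 and not yet given were C3ar1, Flt1, Cdh19, Pi16 and Scd3 on the higher side and Oasl2, Psme1, Cd28, Epcam, Dgat2, Elovl3, Me1, Egr2, Arntl and Srxn1 on the lower. Among these 15 the estimates ran from 0.42 for the complement receptor C3ar1 to 1.01 for the desaturase Scd3, and from -0.27 for the proteasome activator Psme1 to -0.88 for the elongase Elovl3. Cd207, the lectin of Langerhans cells, had a response of -2.73 in KO ears and -2.68 in WT ears, an interaction of -0.05 ± 0.48. Mrgprb1, a receptor of mast cells, read 27.9, 35.2 and 28.3 in KO DNFB ears and 29.3, 31.4 and 25.7 in KO control ears, against 31.2, 25.99 and 35.5 in WT DNFB ears and 48.5, 54.7 and 49.4 in WT control ears. The WT control ears were the high group and the other 3 overlapped (interaction 0.80 ± 0.20, adjusted p = 0.617).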

How the data were processed

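Whole-ear RNA from 6 mice, both ears of each, was hybridised to 12 mouse 430 2.0 arrays, 10 µg of cRNA each, per the labels' protocols. The deposited table holds linear intensities made with GCRMA per the submitters' processing notes; its version and settings are not given in the sources used here, and the values were read as background-corrected and normalised by the authors. From there log2 was taken with no pseudocount and no further normalisation. One mean per group was fitted with limma 3.58.1 in R 4.3.3 (lmFit and eBayes), and the interaction contrast was tested over 29460 non-control probe sets with Benjamini-Hochberg adjustment and a threshold of 0.05. Of the probe sets other than the 64 controls 34945 carried 1 gene symbol, 932 several and 9160 none in the platform annotation. Each gene was represented by the brightest, on average, of its tested probe sets with 1 symbol. With 3 arrays per group the number of arrays limits the precision.

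The labels give both ears of an animal the same number, so the numbers pair the arrays. Deviations of the 2 ears of a mouse from their group means correlated at -0.00426 to 0.0797, and the mouse is an alternative block. Runs were read from hybridisation times more than 30 minutes apart. The genes named are those that passed, the 12 with the smallest p in each direction, and Cnr1, Cnr2 and Ccl8. Of the first 3 tested members of each list, some are given and others are not. Other list members were named after their values were seen, so the examples of a list are not a fixed selection. The members and lists were chosen with earlier results of these data known. Alternatives were other filters, a floor of 16, trended and robust variance, median centring, quantile normalisation, blocks for mouse and run, means over probe sets and leaving out each array. The fit was tested on simulated data. Promoters came from RefSeq (GRCm38.p6). Some list members are not reported here.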

Additional observations from a re-analysis of the deposited data

Results flagged for a closer look

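The DNFB response of Slco1a5 differed between KO and WT ears by the test of the interaction itself (adjusted p = 0.0164 in limma), with a response of 1.31 in KO ears and 3.51 in WT ears and with each of the 3 KO mice below each of the 3 WT mice. All 6 control arrays read below 16 for this gene, and the highest value over all arrays was 28.5. The adjusted p was 0.684 with values below 16 set to 16, 0.568 with the mouse as a block and 0.118 with the run as a fixed block.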

How the results depend on the processing

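The count of 1 probe set and 1 gene rests on settings as well as on data. It was 0 probe sets and 0 genes with no filter, with a minimum of 64 and with the mouse as a replicate block; 2 probe sets and 0 genes with values below 16 set to 16 (Paqr7 and 1 without a single symbol) and with the run as a fixed block (neither with a single symbol); 4 and 3 with a trended and robust variance (Klk6, Degs2, Atp12a and Gsdma); and 3 and 1 with median centring and with the run as a random block. Quantile normalisation gave 1 and 1, and the mean over probe sets 1 gene. Leaving out single arrays gave 0 to 3 probe sets and 0 to 2 genes. The replicate block changed no other call. The Slco1a5 estimate stayed below 0 under all 21 alternatives that gave one, from -2.30 to -0.39, with adjusted p from 0.00461 to 0.684; beyond the floor, which raises its control values, the cause was not tested. List medians that turned sign with the run as a fixed block include those of hair follicle and skeletal muscle genes, at -0.44 and 0.30.

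The unadjusted counts behind the lists moved as follows. For epidermal differentiation the 13 became 8 with the run as a fixed block and 12 with the mouse as a block, and lay between 10 and 13 when single arrays were left out. For cholesterol synthesis the 7 became 6 and 7, and lay between 7 and 8. The 5 chemokines became 2 and 4, and lay between 4 and 7. The 3 genes of alternative macrophage activation became 1 and 3, and lay between 1 and 4. With median centring the counts of these lists, in the same order, were 13, 7, 4 and 1. Epidermal stress genes had 6 with the run as a fixed block, against 0. Groups and runs largely coincide. The fit with the run as a fixed block rests on the single arrays WT DNFB 1 and KO control 3, so it separates the parts of genotype and run only weakly.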
